A study of Mus musculus with 18 samples.

Results

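Open chromatin was described here at the loci of 10 genes of FGF and PDGF signalling in lung endothelial cells (ECs): the ligand genes Fgf2, Pdgfa, Pdgfb and Pdgfd, the receptor genes Fgfr1, Fgfr2 and Fgfr3, and the feedback inhibitor genes Spry1, Spry2 and Spry4. Peaks of all samples on chromosomes 1 to 19, X and Y were merged where they overlapped, which left 47338 consensus regions supported by 2 or more samples. A region belonged to a locus when its midpoint lay nearest to the transcription start site (TSS) of the gene or within its gene body. By this rule 72 of the 47338 regions were taken.

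The study compared ATAC-seq of lung ECs between young and aged mice, without and after bleomycin, which injures the lung and causes fibrosis. ATAC-seq uses the transposase Tn5, which inserts sequencing adapters into accessible DNA. All mice were of the FVB strain and carried a Col1α1-GFP transgene that marks collagen-producing fibroblasts, and both sexes were used. Young Sham (n = 5) and Young Bleo (n = 4) mice were 2 months old, and Aged Sham (n = 4) and Aged Bleo (n = 5) mice were 18 months old. Bleo mice received bleomycin at 1 U/kg into the trachea and Sham mice received saline. Lungs were taken at day 30, and cells negative for CD45, EpCAM and GFP but positive for CD31 were sorted, with 50000 cells per assay. Each of the 18 peak lists came from 1 mouse.

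FGF and PDGF ligands bind receptor tyrosine kinases at the cell surface, and the activated receptors signal through RAS and the ERK kinases to growth and migration. Sprouty proteins are induced by this signalling and dampen it. In blood vessels, FGF signalling is known for maintaining ECs and driving new vessel growth, while PDGF-B released by ECs recruits pericytes through the receptor encoded by Pdgfrb.

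Sequences are shown for 6 regions that the comparisons below turn on, each as 200 bases of the mm10 (GRCm38) forward strand around its strongest summit. The reference is that of C57BL/6J mice, not FVB. The first 3 had the smallest p in the test of presence, the next one the smallest adjusted p in the test of strength, and the other 2 passed the presence test and hold a searched motif, shown in capitals. Capitals mark the ERG core CAGGAAG, read as CTTCCTG on the other strand, and the AP-1 motif TGANTCA.
Fgfr2 intron, chr7:130244530-130244729: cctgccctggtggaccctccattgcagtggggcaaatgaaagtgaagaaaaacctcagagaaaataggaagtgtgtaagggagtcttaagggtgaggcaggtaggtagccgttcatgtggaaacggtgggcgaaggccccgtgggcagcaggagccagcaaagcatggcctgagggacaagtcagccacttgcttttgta
Fgfr2 intron, chr7:130248506-130248705: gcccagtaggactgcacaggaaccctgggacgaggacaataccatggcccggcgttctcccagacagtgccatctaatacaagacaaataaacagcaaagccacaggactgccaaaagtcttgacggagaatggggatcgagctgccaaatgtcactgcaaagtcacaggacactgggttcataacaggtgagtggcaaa
Spry2 intergenic, chr14:105779407-105779606: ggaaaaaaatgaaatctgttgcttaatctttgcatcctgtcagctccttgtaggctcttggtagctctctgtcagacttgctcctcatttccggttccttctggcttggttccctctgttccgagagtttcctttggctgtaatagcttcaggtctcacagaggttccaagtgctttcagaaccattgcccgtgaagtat
Fgfr3 intron, chr5:33731073-33731272: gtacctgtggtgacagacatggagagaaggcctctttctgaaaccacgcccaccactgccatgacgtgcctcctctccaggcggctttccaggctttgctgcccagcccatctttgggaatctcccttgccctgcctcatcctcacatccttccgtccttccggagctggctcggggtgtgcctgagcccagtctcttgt
Fgfr2 intergenic, chr7:130332574-130332773: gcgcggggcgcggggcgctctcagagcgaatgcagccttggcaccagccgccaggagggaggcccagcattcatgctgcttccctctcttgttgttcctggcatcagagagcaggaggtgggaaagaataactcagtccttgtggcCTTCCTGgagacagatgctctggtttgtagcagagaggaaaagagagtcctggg
Pdgfb intergenic, chr15:80024378-80024577: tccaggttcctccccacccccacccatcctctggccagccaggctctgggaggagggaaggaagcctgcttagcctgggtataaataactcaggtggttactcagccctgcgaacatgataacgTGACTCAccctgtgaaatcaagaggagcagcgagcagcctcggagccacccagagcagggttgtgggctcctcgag

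The same 200 bp windows were searched on both strands in all regions. The ERG core CAGGAAG, the sequence bound by the endothelial factor ERG, was found in 19 of the 72 regions (26.4%) and in 9449 of all 47338. The AP-1 motif TGANTCA was found in 6 (8.33%, against 8.63% of all), the GATA motif AGATAA in 6 (8.33%, against 9.61%) and the TEAD motif GGAATG in 8 (11.1%, against 10.5%). The SOX motif AACAATG was found in 7 (9.72%, against 6.05%) and the forkhead motif TGTTTAC in 1 (1.39%, against 4.44%). None of the 4 windows printed first holds any of the 6 motifs, which says only that these letters are absent there. Matches are a description and were not tested.

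Before the results, 3 properties of the lists matter. The lists held 21050 to 40883 peaks, and the share of all consensus regions called in a sample ranged from 43.0% to 80.4%. Its mean was 71.9% in Young Sham, 75.1% in Young Bleo, 59.2% in Aged Sham and 62.9% in Aged Bleo, so that aged lists were shorter on average. According to the names of the lists, all 5 Aged Bleo samples and Aged Sham 4 were sequenced in lane 6, Aged Sham 1 to 3 and Young Bleo 1 to 3 in lane 7, and all 5 Young Sham samples and Young Bleo 4 in lane 8. No aged sample shared a lane with a Young Sham sample, and the lanes were linked only through Young Bleo 4 (lanes 8 and 7) and Aged Sham 4 (lanes 6 and 7). Without the use of these 2 single samples, lane and group cannot be told apart in those comparisons. Of 9 endothelial marker genes, all had a start-site region, called in 7 (Emcn) to 18 samples, and 6 leukocyte, 5 epithelial and 5 mural marker genes had none. Of 5 fibroblast markers only Pdgfra had one, which was called in all 18 samples. Of 3 lymphatic EC markers, the start-site region of Prox1 was called in 17 samples and that of Lyve1 in 7, and Pdpn had none. The summed strength of the 9 endothelial markers was 187 to 280 in Young Sham, 188 to 204 in Young Bleo, 220 to 262 in Aged Sham and 186 to 243 in Aged Bleo, while the median of that of the 3 lymphatic markers was 11.1, 7.67, 5.72 and 0 (highest 26.2, 19.1, 15.1 and 7.38). The part of these markers in the results was not tested. In sorted bulk cells, fewer cells of a type and less open chromatin per cell cannot be told apart.

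Most of the 72 regions lay away from promoters. By RefSeq, 39 were intergenic, 20 intronic, 5 in a UTR, 1 in coding sequence and 7 in a promoter, and 10 were at a start site, taken as 1000 bp before a TSS to 100 bp after it. Their median distance from the nearest TSS was 19657.5 bp, against 12628 bp for all regions, and the farthest lay 129501 bp from its TSS. Their median width was 414 bp, against 440 bp for all, and the median GC content of the 200 bp windows was 57%, against 53%. A total of 20 of the 72 (27.8%) were called in every sample, against 36.8% of all regions, while 26 (36.1%) were called in only 2 to 5 samples, against 23.4%. The 10 loci were thus made of a few regions called in every mouse and many called in some.

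The number of fragments behind a peak could be solved from its fold enrichment and p-value to within 0.001 of a whole number for 760 of the 773 peaks at these regions. These summits held a median of 28 fragments, from 7 to 366. A region without a peak may therefore be open below this depth. Within-list strength ranks the regions of a list by fold enrichment, from 100 for the strongest to 0 below rank 20334, so that the same number of regions is ranked in every list. Aged Bleo 4, the shortest list, had 20334 called regions, so that every region called there scores above 0. In a longer list an equal or stronger peak can score lower. At the Pdgfa start site a fold enrichment of 6.38 gave 22.5 in Aged Bleo 4, and 6.82 gave 0 in Young Sham 2. A strength of 0 means a low rank or no peak, and 27 of the 72 regions had a strength of 0 in all samples.

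**Figure D1:**
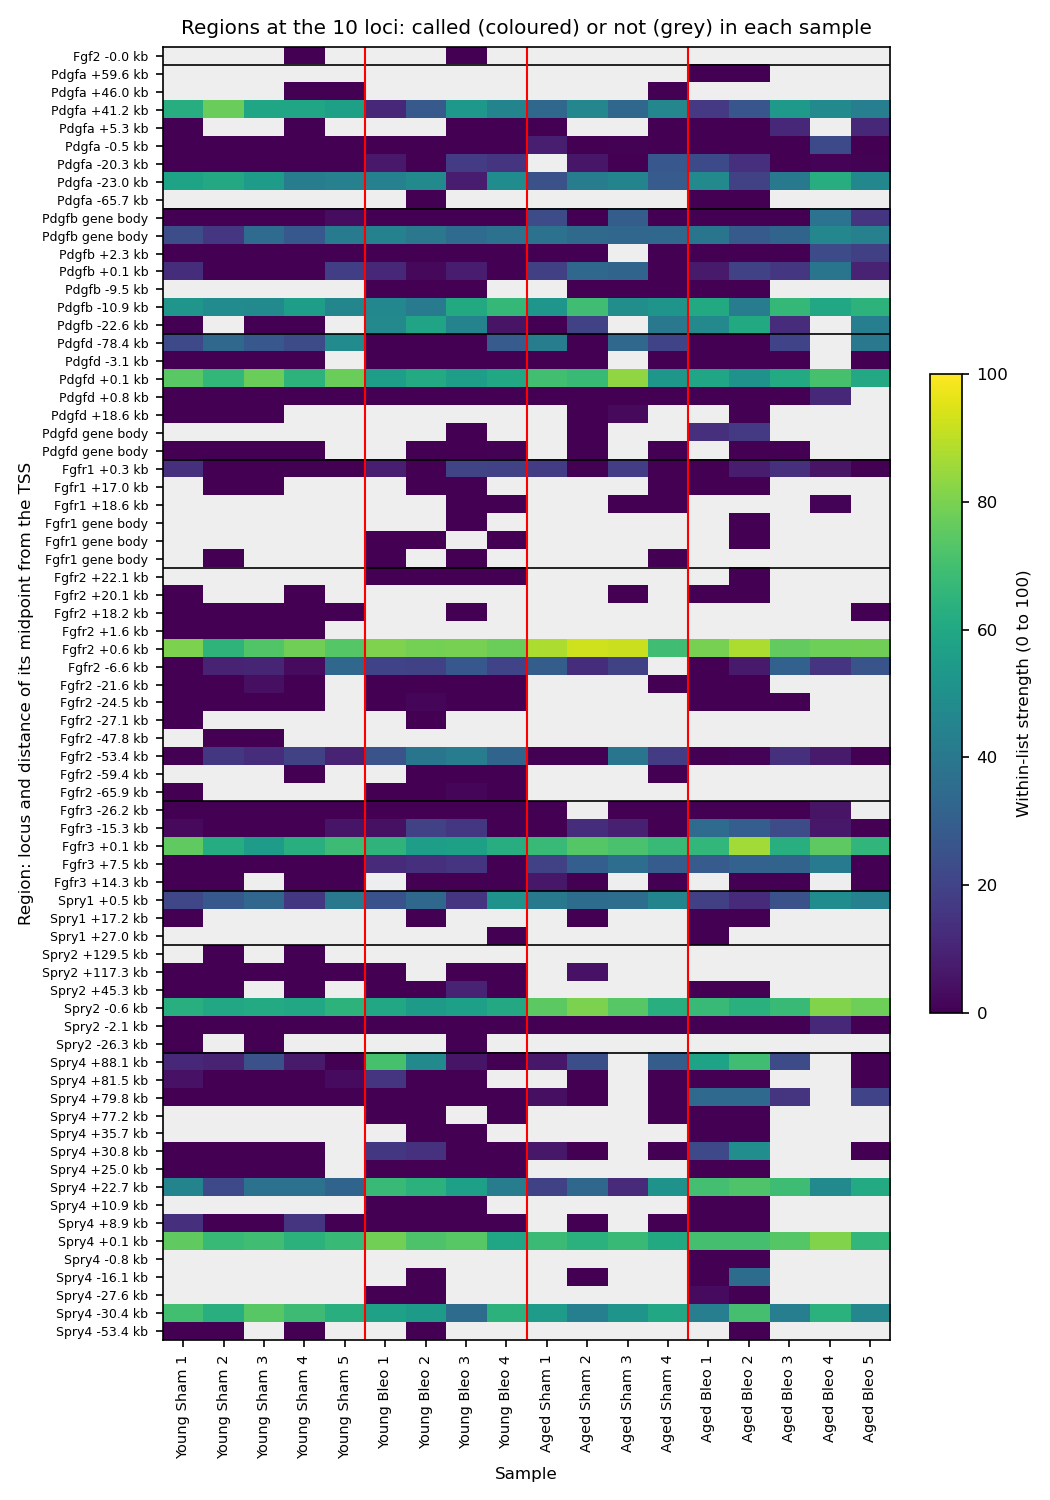
Each row is 1 of the 72 regions, ordered by ligand, receptor and inhibitor loci, and each column is 1 sample, with red lines between the groups. Colour gives the within-list strength from 0 to 100 and grey means no called peak, and the regions near the TSS of Fgfr2, Fgfr3, Pdgfd, Spry2 and Spry4 are bright in all 18 samples while Fgf2 is called in 2.

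Among the ligand loci, the only region of Fgf2, which encodes a growth factor that acts on ECs, was its promoter region (chr3:37348398-37348890). It was called in Young Sham 4 with 12 summit fragments and in Young Bleo 3 with 14, and in no aged sample, and its strength was 0 throughout. A single region at a locus allowed no locus test.

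The locus of Pdgfa, which encodes the A chain of PDGF, held 8 regions, of which 3 were called in every sample. Its start-site region (chr5:138994753-138996204) was one of them but ranked low, with a strength above 0 only in Aged Sham 1 (8.47), Aged Sham 3 (0.743) and Aged Bleo 4 (22.5). Its strongest region outside promoters lay 41166 bp downstream of the TSS, past the end of the gene (chr5:138952839-138953392), with an ERG core and a TEAD motif in its window. There, strength was 62.2, 77.2, 58.7, 59.0 and 56.7 in the Young Sham samples, 11.4, 27.9, 53.5 and 45.1 in Young Bleo, 33.6, 46.2, 33.2 and 46.4 in Aged Sham and 16.5, 26.6, 53.8, 47.6 and 42.6 in Aged Bleo. All Young Sham samples lay above all others, but no difference passed the adjusted test (limma, adjusted p = 0.13 for Young Bleo, 0.372 for Aged Sham and 0.123 for Aged Bleo, each against Young Sham). A region at -22989 bp in a UTR of Prkar1b (chr5:139017720-139018146) was also called in all 18 samples, with a mean strength of 35.2 to 51.9 in the 4 groups.

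Pdgfb, whose product from ECs recruits pericytes, had 7 regions, of which 4 were called in every sample. The start-site region (chr15:80014477-80015226, annotated as UTR) had a strength of 6.3 ± 8.9 (SD, n = 5) in Young Sham, 5.3 ± 5.1 (n = 4) in Young Bleo, 21.2 ± 15.6 (n = 4) in Aged Sham and 18.2 ± 12.6 (n = 5) in Aged Bleo. The strongest region outside promoters lay at -10896 bp (chr15:80025517-80026229) and differed little, with group means of 49.9 to 58.8. Between these lay the region at -9513 bp that was printed above for its AP-1 motif (chr15:80024264-80024717). It was called in none of 5 Young Sham samples, in Young Bleo 1, 2 and 3 with 24, 40 and 38 summit fragments, in Aged Sham 2, 3 and 4 with 24, 19 and 20, and in Aged Bleo 1 and 2 with 27 and 83. Another region at -22634 bp (chr15:80037301-80037921), called in 14 samples, had a strength of 0 in every Young Sham sample, of 47.0, 58.3, 44.8 and 5.30 in Young Bleo, of 0, 19.8, 0 and 39.97 in Aged Sham and of 47.1, 60.9, 12.5, 0 and 42.7 in Aged Bleo. Groups overlapped except Young Bleo and Young Sham, and the adjusted limma p was 0.165 for Young Bleo and 0.188 for Aged Bleo against Young Sham. The Young Bleo sample with 5.30 was the one in lane 8, where all Young Sham samples were.

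Pdgfd encodes another ligand of the receptor of Pdgfrb. Its promoter region (chr9:6168243-6168881), with an ERG core in its window, was called in all 18 samples with a strength of 72.1 ± 6.2 in Young Sham (n = 5), 58.1 ± 2.7 in Young Bleo (n = 4), 68.4 ± 12.5 in Aged Sham (n = 4) and 60.5 ± 6.9 in Aged Bleo (n = 5), and all Young Bleo samples lay below all Young Sham samples (adjusted p = 0.227, limma). The strongest region outside promoters lay at -78356 bp (chr9:6089818-6090443). Its strength was 22.1 to 48.2 in Young Sham, 0 in 3 of 4 Young Bleo samples and 28.8 in the other, the one in lane 8. It was 42.1, 0, 33.7 and 20.1 in Aged Sham and 0, 0, 19.95, 0 and 40.01 in Aged Bleo, so that samples at 0 were found in every group but Young Sham. The adjusted limma p against Young Sham was 0.358 for Young Bleo and 0.412 for Aged Bleo.

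Among the receptor loci, that of Fgfr1, which carries much of the FGF signal in ECs, held 6 regions and 1 called in every sample, its start-site region (chr8:25518587-25519477), with group means of strength of 2.7 to 12.2. The strongest outside promoters by mean strength lay 18618 bp into the gene (chr8:25537235-25537519), was called in 5 samples and reached a strength above 0 only in Aged Bleo 4. That strength was 1.05, with 8 summit fragments and a fold enrichment of 4.31. Another intronic region (chr8:25543480-25543785) had a strength of 0 throughout, but 20 fragments and a fold enrichment of 7.84 in Young Bleo 3.

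The locus of Fgfr2, a receptor of FGFs that is best known from epithelia, held 13 regions from 22113 bp inside the gene to -65928 bp upstream. Its strongest region (chr7:130265873-130266604), 570 bp inside the gene in a UTR and just outside the start-site window, was called in all 18 samples with a strength of 74.0 ± 6.0 in Young Sham (n = 5), 79.3 ± 1.3 in Young Bleo (n = 4), 85.4 ± 10.8 in Aged Sham (n = 4) and 79.9 ± 4.6 in Aged Bleo (n = 5). The intronic region 18249 bp from the TSS (chr7:130248404-130248715), the second one printed above, was called in every Young Sham sample, with 16, 20, 18, 19 and 13 summit fragments. Elsewhere it was called in Young Bleo 3 with 15 and in Aged Bleo 5 with 10, and in no Aged Sham sample. The region 22113 bp from the TSS (chr7:130244558-130244832), the first one printed, differed from it in the young groups. It was called in all 4 Young Bleo samples with 17, 14, 13 and 16 summit fragments and in Aged Bleo 2 with 14, and in none of 5 Young Sham and none of 4 Aged Sham samples.

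Other regions of Fgfr2 were called by group. The region at 1573 bp (chr7:130265051-130265419) was called in Young Sham 1 to 4 with 33, 28, 27 and 21 fragments and in none of the other 14 samples, so that it entered the 47338 regions through Young Sham alone. The region at -24517 bp with an ERG core (chr7:130291132-130291518) was called in 4 of 5 Young Sham, 4 of 4 Young Bleo, none of 4 Aged Sham and 3 of 5 Aged Bleo samples, with 11 to 31 fragments. That at -65928 bp (chr7:130332564-130332909), also with an ERG core, was called in 1 of 5 Young Sham and 4 of 4 Young Bleo samples and in no aged sample. The region at -53376 bp (chr7:130319797-130320572) was called in all samples, with a strength of 0, 16.1, 13.1, 19.4 and 9.45 in Young Sham, 25.6, 38.9, 42.1 and 32.2 in Young Bleo, 0, 0, 38.9 and 17.4 in Aged Sham and 0, 1.15, 13.8, 7.25 and 0 in Aged Bleo. Young Bleo lay above Young Sham in every sample (adjusted p = 0.12, limma), and the interaction of age and bleomycin there had an unadjusted p of 0.00395 and an adjusted p of 0.525.

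Fgfr3 had 5 regions, 3 of them called in every sample. Its promoter region (chr5:33721472-33722214) had a mean strength of 60.0 to 71.3 in the 4 groups. The intronic region 7469 bp from the TSS (chr5:33731006-33731476), printed above, was also called in all 18 samples, but its strength was 0 in all 5 Young Sham samples. It was 12.5, 13.9, 15.5 and 0 in Young Bleo, 19.5, 30.1, 36.2 and 28.9 in Aged Sham, and 28.6, 31.5, 31.9, 41.5 and 0 in Aged Bleo. In strength, Aged Sham did not overlap with the young groups, whereas Aged Bleo 5 lay with Young Sham. In fold enrichment, Aged Sham (8.17, 11.5, 10.03 and 9.95) overlapped with Young Bleo (8.95, 10.2, 10.7 and 5.86). Aged Sham 1, with 8.17 and 18 summit fragments, lay close to Young Sham 4, with 8.01 and 20 fragments but a strength of 0. Fold enrichment in Aged Bleo was 11.3, 13.9, 10.04, 8.48 and 4.896, and the highest strength, 41.5, belonged to the sample with 8.48.

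Among the inhibitor loci, Spry1 had 3 regions. The one over its start sites (chr3:37639702-37641145) was called in every sample with group means of strength of 27.6 to 39.2, and of those outside promoters none reached a strength above 0. At Spry2, the promoter region (chr14:105896938-105897906) had a strength of 61.5 ± 2.2 in Young Sham (n = 5), 57.8 ± 2.9 in Young Bleo (n = 4), 73.1 ± 7.1 in Aged Sham (n = 4) and 71.5 ± 7.6 in Aged Bleo (n = 5). The adjusted limma p against Young Sham was 0.226 for Aged Sham and 0.155 for Aged Bleo. The strongest region outside promoters by mean strength lay at -2144 bp (chr14:105898767-105899159) and was called in all 18 samples, but only Aged Bleo 4 had a strength above 0 there (11.5). The region 117268 bp downstream (chr14:105779373-105779729), the third one printed, was called in every Young Sham sample with 12, 17, 14, 13 and 13 summit fragments. It was called in Young Bleo 1, 3 and 4 with 16, 19 and 13, in Aged Sham 2 with 17, and in no Aged Bleo sample.

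Spry4 had 16 regions, more than any other of the 10 loci. The promoter region (chr18:38600765-38601783) was called in all 18 samples with a mean strength of 65.1 to 72.4 in the groups, and the second promoter region (chr18:38602066-38602282) only in Aged Bleo 1 and 2. The strongest region outside promoters lay at -30397 bp (chr18:38631440-38632049), with a strength of 67.6 ± 4.9 in Young Sham (n = 5) and means of 52.5 to 53.3 in the other groups, whose adjusted limma p was 0.285 or more. The region 22732 bp downstream of the TSS (chr18:38578199-38579032), with SOX and TEAD motifs, had a strength of 45.0, 22.02, 37.3, 37.3 and 32.3 in Young Sham, 67.5, 64.1, 56.6 and 42.1 in Young Bleo, 19.5, 33.2, 11.8 and 50.8 in Aged Sham and 70.0, 72.6, 68.9, 48.0 and 61.0 in Aged Bleo. Every Aged Bleo sample lay above every Young Sham sample, while Aged Sham overlapped with both. The region 79831 bp downstream (chr18:38521258-38521774), with GATA and SOX motifs, had a strength of 34.2, 34.2, 15.2, 0 and 20.1 in Aged Bleo, of 4.17 in Aged Sham 1 and of 0 in all other samples. This region was called in 16 samples. Its fold enrichment was 7.54, 8.10, 9.21 and 5.27 in Young Bleo, all with a strength of 0. In Aged Bleo 1, 2, 3 and 5 it was 12.1, 14.3, 8.12 and 7.87.

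3 further regions of Spry4 were called by group. The one 25012 bp downstream (chr18:38576140-38576530) was called in 4 of 5 Young Sham, 4 of 4 Young Bleo, none of 4 Aged Sham and 2 of 5 Aged Bleo samples. Those at 77194 bp (chr18:38523916-38524390, with a TEAD motif) and at 10940 bp (chr18:38590254-38590561, in coding sequence) were called in no Young Sham sample and in 3 of 4 Young Bleo samples each, and the first of them also in Aged Sham 4. In Aged Bleo both were called in replicates 1 and 2 only, which had the longest lists of that group (37595 and 40883 peaks).

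The presence of a peak was then compared between groups, at each of the 47338 regions by Fisher's exact test (two-sided). With 5 against 4 samples the smallest possible p is 0.00794, and after Benjamini-Hochberg adjustment no region of the 47338 passed 0.05 in any comparison. Counts below are therefore at an unadjusted p of at most 0.05 and are read against the share of all regions that met the same rule. For age without injury, Aged Sham against Young Sham, 5 of the 72 regions (6.94%) were called less often in Aged Sham, against 4.9% of all regions, and 1 (1.39%) more often, against 0.264%. The Fgfr2 region at 1573 bp, which had peaks in Young Sham only, could differ in no other direction in this and the next comparisons. The 5 were the Fgfr2 regions at 18249 bp (exact p = 0.00794), 1573 bp and -24517 bp, the Spry2 region at 117268 bp and the Spry4 region at 25012 bp (exact p = 0.0476 each), and the one called more often was the Pdgfb region at -9513 bp (exact p = 0.0476).

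Between Young Bleo and Young Sham, the effect of injury in young mice, 6 regions (8.33%) were called more often in Young Bleo, against 3.98% of all regions, and 2 (2.78%) less often, against 1.96%. Among those more often called were the Fgfr2 region at 22113 bp (exact p = 0.00794), that at -65928 bp, the Pdgfb region at -9513 bp and the Spry4 regions at 77194 and 10940 bp (exact p = 0.0476 each). Less often called were the Fgfr2 regions at 18249 and 1573 bp (exact p = 0.0476 each). The Fgfr2 regions at 22113 and -65928 bp had at most 1 peak outside Young Bleo, so that they passed the minimum of 2 samples only through that group. The same holds for 1 more of the 6 regions.

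Between Aged Bleo and Young Sham, 3 regions (4.17%) were called less often in Aged Bleo, against 3.01% of all, and none more often, against 0.201%. They were the Spry2 region at 117268 bp (exact p = 0.00794) and the Fgfr2 regions at 18249 and 1573 bp (exact p = 0.0476 each). Between Aged Bleo and Aged Sham, none of the 72 met the rule in either direction, against 0.41% of all regions called less often and 0.475% more often. The 3 comparisons with Young Sham share its 5 samples, so that the reappearance of the 2 Fgfr2 regions in all of them is not independent. Within lane 7, the Spry2 region was called in 2 of 3 Young Bleo and 1 of 3 Aged Sham samples and the Fgfr2 region at 18249 bp in 1 of 3 and 0 of 3. The Fgfr2 region at 22113 bp was called in 3 of 3 Young Bleo samples there and 0 of 3 Aged Sham samples, and in lane 8 in the 1 Young Bleo sample and 0 of 5 Young Sham samples. The Fgfr2 region at -65928 bp and the Spry4 region at 77194 bp were called in the 1 Young Bleo sample of lane 8 too, against 1 of 5 and 0 of 5 Young Sham samples. The Pdgfb region at -9513 bp and the Spry4 region at 10940 bp were called in neither group in lane 8, but in 3 of 3 Young Bleo samples of lane 7 each.

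The 11 regions so called had a strength of at most 4.75 in any sample. With 1 sample left out, all 17 differences kept their direction and a size of 66.7 to 100 percentage points, while the smaller groups let few pass the threshold. When each list was cut to its 21050 peaks with the smallest p-values, the length of the shortest list, none of the 11 regions was kept in more than 2 of the 18 lists, so that these 17 calls could not be compared at equal length. There 12 calls at 6 other regions met the rule. In Aged Sham, 3 regions were called more often, against 0.811% of all, and none less often, against 0.917%. In Young Bleo, 4 were called more often, against 2.17%, and 1 less often, against 1.88%, and in Aged Bleo 4 more often, against 0.646%, and none less often, against 1.16%. The Fgfr3 region at 7469 bp was kept in 4 of 4 Aged Sham, 3 of 4 Young Bleo, 4 of 5 Aged Bleo and 0 of 5 Young Sham lists, and the Pdgfa region at -20293 bp (chr5:139014946-139015528, with an AP-1 motif) in 3 of 4, 4 of 4, 4 of 5 and 0 of 5. The Spry4 region at 79831 bp was kept in 3 of 4 Young Bleo, 4 of 5 Aged Bleo and 0 of 5 Young Sham lists.

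**Figure D2:**
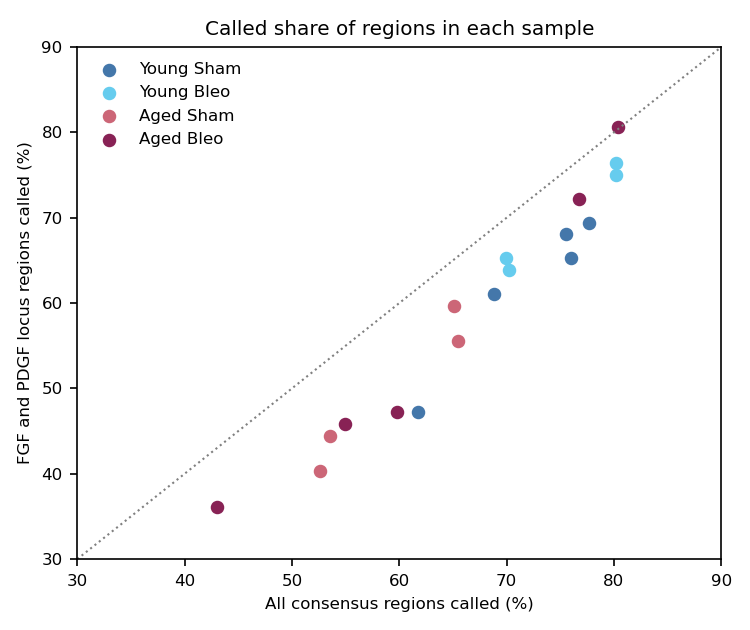
Each point is 1 of the 18 samples, with the share of all 47338 consensus regions called on the x axis and the share of the 72 regions called on the y axis, both in percent, and the dotted line marks equal shares. All points but that of Aged Bleo 2 lie below the line, which they follow from Aged Bleo 4 (43.0% and 36.1%) to Aged Bleo 2 (80.4% and 80.6%).

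Over the 72 regions, 44.8 ± 6.46 were called in Young Sham (SD, n = 5, range 34 to 50), 50.5 ± 4.65 in Young Bleo (n = 4, 46 to 55), 36.0 ± 6.58 in Aged Sham (n = 4, 29 to 43) and 40.6 ± 13.7 in Aged Bleo (n = 5, 26 to 58). Aged Bleo spanned the whole range of the other groups. The number called at a locus followed the number called over all 47338 regions to different degrees, as a description over 18 samples in which both counts share the list. Pearson's r was 0.881 for Spry4, 0.833 for Fgfr2, 0.737 for Pdgfd, 0.727 for Spry2 and 0.344 to 0.558 for the other 6 loci.

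The number of called regions per locus was tested with a two-sided exact permutation test for the 9 loci with at least 2 regions, among 10703 genes. No gene had an adjusted p of at most 0.05 in any comparison, so that counts at an unadjusted p of at most 0.05 are given. For Aged Sham against Young Sham 2 of the 9 loci met it, against 14.9% of the 10703 genes. Fgfr2 had 10, 8, 8, 9 and 4 called regions in the Young Sham samples and 3, 3, 4 and 4 in the Aged Sham samples, a difference of -4.3 (exact permutation p = 0.0317, adjusted p = 0.319). Spry2 had 5, 5, 4, 5 and 3 against 2, 3, 2 and 2, a difference of -2.15 (exact permutation p = 0.0238, adjusted p = 0.319). The Fgfr2 regions at 1573 and -47760 bp and the Spry2 region at 129501 bp had peaks in Young Sham only, so that in these counts they could only be lower in Aged Sham. The Spry2 region at -26348 bp had 1 peak elsewhere, in Young Bleo, and passed the minimum of 2 samples only through Young Sham. With no peak in Aged Sham, it too could only be lower there. At both loci the groups met only at Young Sham 5, the shortest Young Sham list. Neither locus met the rule without any one of Young Sham 1 to 4 or Aged Sham 1, 3 or 4, and only 1 did without Aged Sham 2. With equal list lengths the differences were -0.15 and 0.0, while Fgfr3 and Pdgfa came out higher in Aged Sham (1.55 and 0.95 regions, exact permutation p = 0.0238 and 0.0397), as did 2.59% of all genes, while 2.86% came out lower.

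Between Young Bleo and Young Sham 2 loci met the rule, against 10.7% of genes. Fgfr1 had 3, 3, 5 and 3 called regions in Young Bleo against 1, 3, 2, 1 and 1 (difference 1.9, exact permutation p = 0.0397, adjusted p = 0.445), and Pdgfb had 7, 7, 7 and 6 against 6, 5, 6, 6 and 5 (difference 1.15, exact permutation p = 0.0317, adjusted p = 0.445). Neither met it without any one of Young Sham 1, 3, 4 or 5 or Young Bleo 1, 2 or 3, and only 1 did without Young Sham 2. The count at Fgfr1 includes a region that passed the minimum of 2 samples only through Young Bleo, which adds to the difference. With equal list lengths the difference was 0.55 at Fgfr1 (p = 0.206, exact permutation) and 1.35 at Pdgfb (p = 0.0476, exact permutation), where 5.3% of all genes met the rule with more regions and 5.18% with fewer. Between Aged Bleo and Young Sham only Spry2 met the rule, with 3, 3, 2, 2 and 2 called regions in Aged Bleo (difference -2.0, exact permutation p = 0.0238, adjusted p = 0.659), against 7.22% of genes. Its regions at 129501 and -26348 bp passed the minimum of 2 samples only through Young Sham. With no peak in Aged Bleo, these regions could only lower this count. With equal list lengths the Spry2 difference was 0.0, and 3 other loci met the rule with more regions in Aged Bleo, Pdgfa (1.4, exact permutation p = 0.00794), Pdgfb (1.6, p = 0.0238) and Fgfr3 (1.6, p = 0.0476), as did 2.07% of all genes, while 3.48% had fewer. Between Aged Bleo and Aged Sham none did, against 1.51%. At Spry4, Aged Bleo split into 2 samples with 15 and 16 called regions and 3 with 3 to 7.

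**Figure D3:**
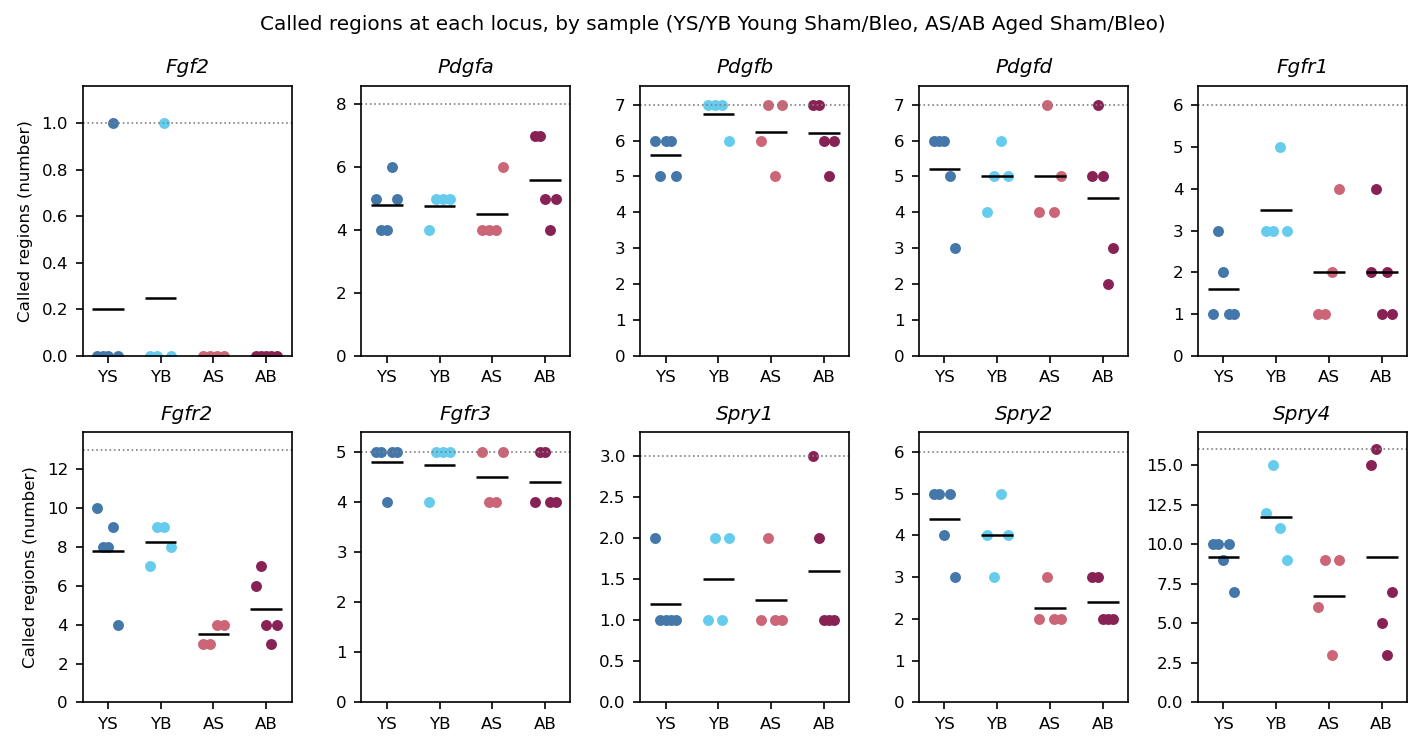
Each panel is 1 locus, with the number of called regions on the y axis and the groups Young Sham (YS), Young Bleo (YB), Aged Sham (AS) and Aged Bleo (AB) on the x axis. Points are samples, black bars group means and the dotted line the number of regions at the locus, and the Fgfr2 points lie between 4 and 10 in Young Sham and between 3 and 4 in Aged Sham.

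Strength was compared with limma over all 47338 regions. Between Aged Bleo and Young Sham 3 of the 72 regions passed an adjusted p of 0.05, against 2.51% of all regions, and all 3 were higher in Aged Bleo. The Fgfr3 region at 7469 bp was higher by 26.7 (adjusted p = 0.0244, in 4 of 5 Aged Bleo samples above all Young Sham samples), the Spry4 region at 79831 bp by 20.7 (adjusted p = 0.0305, in 4 of 5) and the Spry4 region at 22732 bp by 29.3 (adjusted p = 0.0441, in 5 of 5). Without Young Sham 1, 2, 3 or 4 or Aged Bleo 1 none of the 3 passed, and without Aged Bleo 2, 3 or 5 only 1 of the 72 did. At an unadjusted p of at most 0.05, 10 of the 72 were higher in Aged Bleo, against 6.64% of all regions, and 4 lower, against 7.04%. No sample of Aged Bleo shared a lane with Young Sham. With lane as a term of the fit the differences were 12.4, 22.1 and -20.7, each with an adjusted p of 1.0, and these estimates rest on the single linking samples Young Bleo 4 and Aged Sham 4.

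In lane 7, the strength of the Fgfr3 region at 7469 bp was 12.5, 13.9 and 15.5 in the 3 Young Bleo samples, with a mean of 28.6 in 3 Aged Sham samples, and in lane 8 it was 0 both in the 5 Young Sham samples and in the 1 Young Bleo sample. In lane 6 it was 26.7 in 5 Aged Bleo samples and 28.9 in the 1 Aged Sham sample. The Spry4 region at 22732 bp had a mean of 62.7 in 3 Young Bleo and 21.5 in 3 Aged Sham samples of lane 7, of 34.8 in Young Sham and 42.1 in the 1 Young Bleo sample of lane 8, and of 64.1 in Aged Bleo and 50.8 in the 1 Aged Sham sample of lane 6. In strength, Young Bleo was thus above Aged Sham within lane 7 at this region, and below Aged Sham at the Fgfr3 region.

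In the other comparisons none of the 72 regions passed the adjusted test in limma. The adjusted test was passed by 0.403% of all regions for Aged Sham against Young Sham, 1.65% for Young Bleo against Young Sham, 0.0528% for Aged Bleo against Aged Sham and 0.0148% for the interaction of age and bleomycin. At an unadjusted p of at most 0.05, 3 of the 72 were higher in Aged Sham than in Young Sham, against 4.32% of all regions, and 2 lower, against 4.33%. In Young Bleo 4 were higher than in Young Sham, against 5.53%, and 4 lower, against 5.68%. In Aged Bleo 2 were higher than in Aged Sham, against 3.14%, and none lower, against 4.32%, and for the interaction 2 were above 0, against 2.71%, and 1 below, against 2.72%. The nearest was the Fgfr3 region at 7469 bp in Aged Sham, with an adjusted p of 0.0612. The 2 regions with an unadjusted p of at most 0.05 between Aged Bleo and Aged Sham were both at Spry4, at 22732 bp (adjusted p = 0.121) and 79831 bp (adjusted p = 0.18), and both were higher in Aged Bleo.

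**Figure D4:**
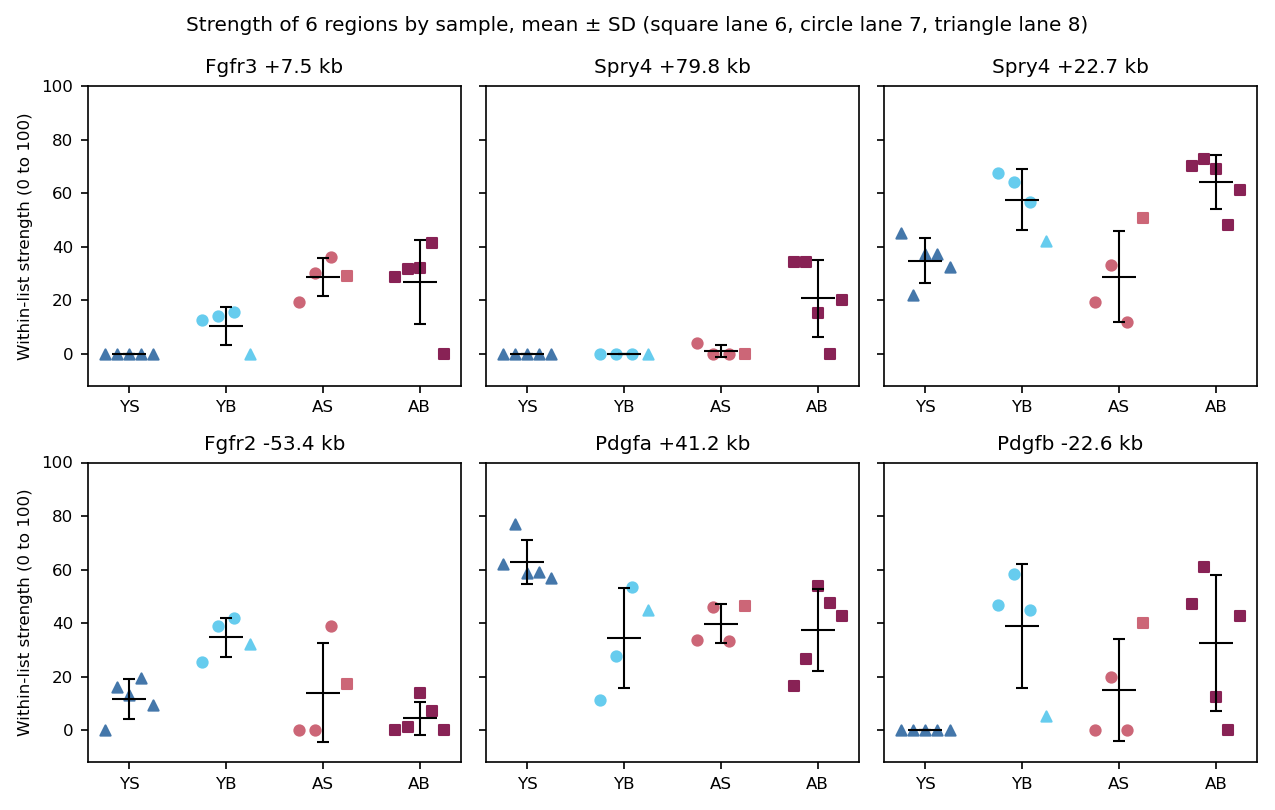
Each panel is 1 region, named by its locus and the distance of its midpoint from the TSS, with within-list strength (0 to 100) on the y axis and the groups on the x axis (YS and YB young, AS and AB aged, S Sham and B Bleo). Points are samples with their lane as the marker, bars are mean ± SD (n = 5, 4, 4 and 5), and the Fgfr3 region has a strength of 0 in all 5 Young Sham samples and up to 41.5 in Aged Bleo.

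Of 42 other genes of the pathway, 24 had at least 2 regions and were tested in the same way. For Aged Sham against Young Sham 6 of the 24 had fewer called regions at an unadjusted p of at most 0.05 and none more, with a median difference of -0.225 regions. Of all 10703 genes, 14.6% had fewer and 0.355% more in the shorter Aged Sham lists, with a median difference of -0.4. These were Fgfrl1 (-1.55), Fgf1 (-1.85), the adaptor gene Gab1 (-1.15), the ETS factor genes Etv1 (-2.1) and Etv4 (-0.95), and Il17rd (-3.45), which encodes a membrane inhibitor of FGF signalling. Adjusted p-values of the exact permutation test were 0.26 to 0.319. Between Young Bleo and Young Sham 2 had more, Fgf18 (0.8) and Sos1 (0.75), against 7.64% of all genes, and none fewer, against 3.06%. Between Aged Bleo and Young Sham 2 had fewer, Fgfrl1 (-1.2) and Etv1 (-2.2), against 7.0% of all genes, and none more, against 0.224%. Between Aged Bleo and Aged Sham none met this threshold in either direction, against 1.51% of all genes. Dusp5 and Etv5, both targets of ERK signalling, had 2 regions each and both were called in all 18 samples. The start-site region of Pdgfra, the receptor gene of PDGF-A, was called in all samples, and Pdgfrb had 1 region and none at a start site.

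The genes whose number of called regions over the 18 samples was most like that of a locus were found among 6670 genes with at least 3 regions, as a description of lists of unequal length. For Fgfr2 they were Gm38691 (r = 0.967), A930011G23Rik (0.943) and Adprhl2 (0.931), and for Spry4 Gm10532 (0.968), Ctif (0.958) and Mir21c (0.958). For Spry2 they were Lrmp (0.92), Evl (0.918) and Fmo2 (0.913), and for Pdgfd Stard13 (0.921), Mertk (0.887) and Ddi1 (0.881). Pdgfb was most like Cdc42ep4 (0.897) and Fgfr1 like Gm16159 (0.878). Ddi1 and Gm16159 share regions with Pdgfd and Fgfr1, since they have the nearest TSS to some regions within those gene bodies. The highest r was 0.871 for Spry1 (Gm28043), 0.827 for Pdgfa (Scarletltr) and 0.798 for Fgfr3 (Ccdc25).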

How the data were processed

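Per the labels and methods, the authors aligned the Omni-ATAC-seq read pairs with BWA (mm10), removed duplicates and called peaks per sample with MACS2 at an FDR of 1%. In the deposited lists, fold enrichment is a ratio of summit fragments to local background, the -log10 p and -log10 q come from the test MACS2 runs, and the score is a rescaled -log10 q, not used here. Both terms of the fold enrichment have 1 added, which lowers the ratio most where the background is small. For the Pdgfd region at -78356 bp in Young Sham 1, 27 fragments over a background of 1.45 are thus listed as 11.44. The values deposited by the authors are not scaled between libraries, and only these peak lists were used here, without read totals, so that the authors' DiffBind analysis of counts was not repeated. Coordinates are 1-based on mm10.

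A region was called where a peak overlapped it by at least 1 bp, and 19 mitochondrial peaks were left out. Annotation used 45756 RefSeq transcripts of GRCm38.p6. Strength was tested with limma 3.58.1 (R 4.3.3) over all 4 groups, presence and locus counts with exact tests in Python 3.11.15 (scipy 1.17.1, numpy 2.4.6, pandas 2.3.3), all with Benjamini-Hochberg adjustment over all features. Each script was tested on simulated data. Alternatives were a -log10 q of at least 5, peaks covering 50% of a region, equal list lengths, regions found in 3 or more samples, other strength scales, a lane term, a replicate block and each sample left out. For each gene, promoter regions and the strongest other region were described. So was every region past the presence test or the adjusted strength test in the main setting. Other regions were described by counts. The values and sequence of 1 region that passed a test are not reported here. The 10 genes, the 42 other pathway genes, the markers and the motifs were chosen with earlier results of these data known. Each list is from 1 mouse.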

Additional observations from a re-analysis of the deposited data

Results flagged for a closer look

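In 84 groups of 4 or 5 samples, 1 sample lay far from the rest of its group in 15 (Dixon's test at 95%), and chance marks about 1 in 20 groups of continuous values. That share does not apply to most of these groups, in which all other samples are tied and any sample that differs is marked. For the number of called regions, Young Bleo 3 had 5 at Fgfr1 where the other Young Bleo samples had 3. At Fgfr3, Young Sham 3 and Young Bleo 1 had 4 where the others had 5. The single Fgf2 region was called in 1 Young Sham and 1 Young Bleo sample (value 1 against 0). At Pdgfa, Young Bleo 1 had 4 against 5, and Aged Sham 4 had 6 against 4. At Pdgfb, Young Bleo 4, the sample in lane 8, had 6 against 7. At Spry1, Young Sham 1 and Aged Sham 2 had 2 against 1, and at Spry2 Aged Sham 2 had 3 against 2.

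For strength, the start-site region of Pdgfa stood out in Aged Sham 1 (8.47) and Aged Bleo 4 (22.5), which had the shortest list of all. The start-site region of Fgfr1 had a strength of 13.3 in Young Sham 1 and 0 in the other Young Sham samples. The Spry4 region at 79831 bp had 4.17 in Aged Sham 1 and 0 in the other Aged Sham samples.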

How the results depend on the processing

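Presence was counted for the 72 regions, strength in limma, and called regions per locus. For Aged Sham against Young Sham, the number of regions that differed in presence was 6 (5 lower, 1 higher), 2 where a peak had to cover 50% of the region, and 1 to 4 with 1 sample left out. With equal list lengths it was 3, all higher and none of them among the 6. For Young Bleo against Young Sham, it was 8, and 1 to 4 without 1 sample. With equal list lengths it was 5, none of them among the 8. Groups with 1 sample left out pass the threshold only if they are almost completely separated, so that the lost calls say nothing about stability. With 1 sample left out the differences themselves stayed at 66.7 to 100 percentage points.

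In strength, none passed for Aged Sham against Young Sham, but 2 did by the percentile over all peaks of a list, and 0 to 1 with 1 sample left out. For Young Bleo, none became 3 by the rank of -log10 p and 4 by percentile. For Aged Bleo against Young Sham, 3 became 5 by the rank of -log10 p and 0 with lane as a term, where the Spry4 region at 22732 bp turned to -20.7, and ranged from 0 to 2 without 1 sample. For Aged Bleo against Aged Sham, none became 1 by the rank of -log10 p, and 0 to 1 with 1 sample left out. The causes were not tested.

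Of the loci, 2 for Aged Sham ranged from 0 to 2 without 1 sample. For Young Bleo, 2 became 1 with equal list lengths and 1 where regions were assigned by the nearest TSS only, and ranged from 0 to 2. For Aged Bleo against Young Sham, 1 became 3 with equal list lengths and ranged from 1 to 2. The Fgfr3 difference for Aged Sham turned to 0.1 at a -log10 q of at least 5, to 0.5 where peaks had to cover 50% of a region and to 1.55 with equal list lengths, that of Pdgfa to 0.95, and for Aged Bleo that of Fgfr3 to 1.6. Of 26 other differences at these loci, for which the text gives no direction, 14 changed sign under an alternative.

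Samples with the same replicate number did not deviate together (25 pairs, median r 0.0229, 4 over 0.1), so that the numbers do not pair them. With a replicate block, 2 regions instead of 3 passed for Aged Bleo against Young Sham, and none in the other comparisons. The lists hold no read totals, and a summit of few fragments can miss the peak threshold, which limits every count of called regions.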
